A study of Mus musculus with 15 samples.

Results

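The AP-1 transcription factors examined here are 9 mouse genes, Fos, Fosb, Fosl1, Fosl2, Jun, Junb, Jund, Atf3 and Maff. They were found by their Ensembl identifiers among the 52636 gene identifiers of the deposited count table, and all 9 passed the filter on low counts that left 13451 genes. AP-1 is a dimer of basic leucine zipper (bZIP) proteins that binds short DNA sites and turns brief signals into changes of transcription. Jun proteins pair with one another and with Fos proteins, Fos proteins need a partner, Atf3 pairs with Jun proteins or with itself, and Maff is a small Maf protein that lacks its own activation domain. Several of these genes are immediate early genes, whose transcription starts within minutes of ERK (extracellular signal-regulated kinase) activation without new protein synthesis, and the transcripts of Fos and Junb are known for their short life. ERK itself is switched on by the kinases RAF and MEK in turn.

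On GRCm38 (GENCODE M21) the Fos family genes are Fos (ENSMUSG00000021250) at chr12:85473890-85477273, plus strand; Fosb (ENSMUSG00000003545) at chr7:19302696-19310051, minus strand; Fosl1 (ENSMUSG00000024912) at chr19:5447547-5455946, plus strand and Fosl2 (ENSMUSG00000029135) at chr5:32135801-32157842, plus strand. The Jun family genes are Jun (ENSMUSG00000052684) at chr4:95049034-95052222, minus strand, Junb (ENSMUSG00000052837) at chr8:84974484-84978718, minus strand and Jund (ENSMUSG00000071076) at chr8:70698949-70700616, plus strand. The remaining members are Atf3 (ENSMUSG00000026628) at chr1:191170296-191218039, minus strand and Maff (ENSMUSG00000042622) at chr15:79346621-79359076, plus strand. All are protein-coding genes, Jun and Jund with a single exon. Jun shares 232 exon bases with the antisense gene Junos, which had at most 7 counts in any library, and Jund shares 877 with the antisense gene Gm11175, listed at 0 in all libraries.

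RNA was measured in 15 libraries of mouse epiblast-like cells (EpiLCs), cells brought from embryonic stem cells to a state like the early post-implantation epiblast by 48 h with 12 ng/ml bFGF, 20 ng/ml Activin A and 1 µM XAV939. They came from the CRAFR26 line, which carries a c-RAF construct that 4-hydroxytamoxifen (4OHT) switches on, and from 2 clones of it, clone 4 and clone 8. Every group, the 0h group included, was held for 2 h in 250 nM of the FGF receptor inhibitor PD17 before the construct was induced, so 0h is a state with receptor signalling inhibited and not an untreated one. The 0h group (3 libraries, 1 of clone 4 and 2 of clone 8) had no 4OHT. The 2h and 4h groups (4 libraries each, 2 per clone) had 250 nM 4OHT for 2 and 4 h. The rev group (4 libraries, 2 per clone) had 4OHT for 4 h followed by 2 h with a MEK inhibitor. No group had the same total time without that inhibitor, so the inhibitor and the added time cannot be told apart. By design the construct, and not a receptor, was meant to drive ERK, whose activity was not measured in these libraries. No library had 4OHT without the construct, so effects of 4OHT itself and of the construct cannot be told apart. Each clone is a single derived line. Nothing in the labels says that the 2 libraries of a clone were separate cultures, so p-values measure the spread between these samples.

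The 4h libraries stood apart from the rest before any member was considered. They held 1552022 to 6658950 counts against 8667880 to 13004556 in the other groups, and 7.21% to 12.4% of their counts were mitochondrial against 2.67% to 6.98%. The summed level of 9 EpiLC markers was 821 to 969 CPM at 4h and 1263 to 1575 CPM at 0h, where CPM is a count divided by the library's total in units of 1e6, with totals scaled by the trimmed mean of M-values (TMM). Dnmt3b made up most of that sum, with a mean of 935 CPM at 0h and 416 CPM at 4h. The means of 4 of the 9 (Dnmt3b, Pou5f1, Pou3f1 and Fgf5) were lower at 4h and those of the other 5 were higher, with Sox2 at 22.3 and 111 CPM and Nanog at 14.2 and 50.4 CPM. The 8 naive embryonic stem cell markers summed to 67.8 and 62.7 CPM in the 4h libraries of clone 4 and to 216 and 189 CPM in those of clone 8, against 20.9 to 39.1 CPM in all 0h, 2h and rev libraries. The 3 neural markers summed to 37.9 to 50.5 CPM at 4h and 2.86 to 10.1 CPM elsewhere, with Neurog2 at 0 at 4h. The 5 mesendoderm markers summed to 3.01 to 13.5 CPM, the 5 primitive endoderm markers to 2.26 to 5.16 CPM and the 6 fibroblast markers to 0.377 to 15.7 CPM, with Postn at 0 in every group. The 6 heat shock and handling stress genes summed to 625 to 1221 CPM, and their groups overlapped. Their clones did not, with 789 to 1221 CPM in the libraries of clone 4 and 625 to 777 CPM in those of clone 8. Any part of this in the clone differences of the members was not tested. Any part of these differences in the results at 4h was not tested. In bulk RNA, fewer cells of a kind and less RNA per cell cannot be told apart.

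The promoters of Fos, Junb, Jun and Maff are shown because these genes followed 3 different courses over both clones. Fos and Junb peaked with the 2h group and were called lower in 4h vs 2h. They were still called higher in 4h vs 0h, but not in rev vs 0h. Jun had a difference at 2 h that was not called. Maff had no called fall in 4h vs 2h, and every later group was called above 0h. Within clone 8 none of these genes was called higher in 4h vs 0h. The promoter of Atf3 is shown because the gene fell to the floor of detection at 4h. Each run is the 250 bases before the RefSeq start on build GRCm38.p6, 5′ to 3′ on the gene's own strand, with motif matches in capitals. Windows were found for 8 of the 9 members. Maff had 3, of which the second is printed.
Fos, chr12:85473640-85473889, plus strand: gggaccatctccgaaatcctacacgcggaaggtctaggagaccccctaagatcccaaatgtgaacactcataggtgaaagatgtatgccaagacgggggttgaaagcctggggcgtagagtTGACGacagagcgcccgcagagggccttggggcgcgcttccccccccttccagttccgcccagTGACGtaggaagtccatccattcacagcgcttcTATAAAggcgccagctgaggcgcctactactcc
Junb, chr8:84978749-84978998, minus strand: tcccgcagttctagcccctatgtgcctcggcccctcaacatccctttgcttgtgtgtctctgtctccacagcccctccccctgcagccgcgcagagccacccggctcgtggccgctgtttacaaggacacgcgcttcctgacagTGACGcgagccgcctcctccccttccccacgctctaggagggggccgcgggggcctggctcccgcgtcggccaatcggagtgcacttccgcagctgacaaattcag
Jun, chr4:95052223-95052472, minus strand: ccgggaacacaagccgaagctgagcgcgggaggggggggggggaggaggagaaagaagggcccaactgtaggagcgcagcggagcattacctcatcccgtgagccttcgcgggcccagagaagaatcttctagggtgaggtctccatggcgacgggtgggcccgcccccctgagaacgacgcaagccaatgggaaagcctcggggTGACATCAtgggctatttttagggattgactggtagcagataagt
Atf3, chr1:191183334-191183583, minus strand: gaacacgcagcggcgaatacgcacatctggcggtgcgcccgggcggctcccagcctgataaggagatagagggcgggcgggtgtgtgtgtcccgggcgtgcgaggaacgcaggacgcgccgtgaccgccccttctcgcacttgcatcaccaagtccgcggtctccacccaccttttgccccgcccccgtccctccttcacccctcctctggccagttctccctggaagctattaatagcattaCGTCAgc
Maff, chr15:79347270-79347519, plus strand: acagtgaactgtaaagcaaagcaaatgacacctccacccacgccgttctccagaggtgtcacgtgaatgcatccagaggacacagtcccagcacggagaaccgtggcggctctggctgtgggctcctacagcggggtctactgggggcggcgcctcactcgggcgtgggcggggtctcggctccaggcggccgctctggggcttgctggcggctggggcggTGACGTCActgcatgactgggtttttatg

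The capitals mark the cAMP response element (CRE) TGACGTCA, its half-site TGACG, the TATA box TATAAA and the 8-base AP-1 site TGACATCA known from the Jun promoter, all searched on both strands over 300 bases (250 before and 50 after the start). The half-site lies within the CRE, so each CRE also counts as a half-site. Fos held 2 half-sites, beginning at -129 and -66 (base -1 is the last before the start), and a TATA box at -33. Junb held 1 half-site at -106 and, outside the printed run, a TATA box at 1, and Fosb held 1 half-site at -60. On the minus strand the printed run of Junb ends at 84978749 and its GENCODE start is at 84978718. Its TATA box therefore lies upstream of the GENCODE start. The half-site of Atf3 was on the opposite strand at -7 to -3. Jun held TGACATCA at -45, and so did the third Maff window at -45, which also held a half-site on the opposite strand at -122 to -118. The second Maff window held the CRE at -29, a site on both strands. No match was found in the windows of Fosl2 and Jund and in the first window of Maff. The RefSeq window of Jund (chr8:70697489-70697788) ended upstream of the GENCODE start at 70698949, so the bases next to that start were not searched. Over 32851 RefSeq promoter windows the half-site occurred in 20.8%, the CRE in 1.79%, the TATA box in 13.6% and TGACATCA in 3.62%, the last searched after the sequences had been seen. The 7-base AP-1 site TGANTCA (7.81% of windows) and the CArG box that serum response factor binds (1.63%) occurred in no member's window. Bases more than 250 before the start were not searched, so sites further upstream would have been missed. The ETS core CCGGAA (14.9%) occurred in the second Maff window, after the start. These are matches of letters in a window and say nothing of a factor's binding.

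The members began from very different levels. Per kilobase of merged exon, Jund, the Jun family member known for steady expression, was highest at 0h with 14.8 ± 2.81 CPM per kb (SD, n = 3), and no library of another member reached it. Jun followed with 2.96 ± 0.263 and Atf3 with 2.16 ± 0.741 CPM per kb, whose libraries overlapped. Junb (1.08 ± 0.174) lay below Atf3 without overlap and above Fosl1 (0.597 ± 0.144) without overlap. From Fosl1 down, through Maff (0.485), Fos (0.284) and Fosl2 (0.107) to Fosb (0.0682), each overlapped its neighbour. At 2h the highest mean was that of Junb at 68.8 ± 46.3 CPM per kb (SD, n = 4), followed by Jund (18.6 ± 5.79) and Fos (14.2 ± 5.52), and every neighbour in that order overlapped. At 4h and in rev Jund was again the highest mean, with Junb second and Fosb last.

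**Figure D1:**
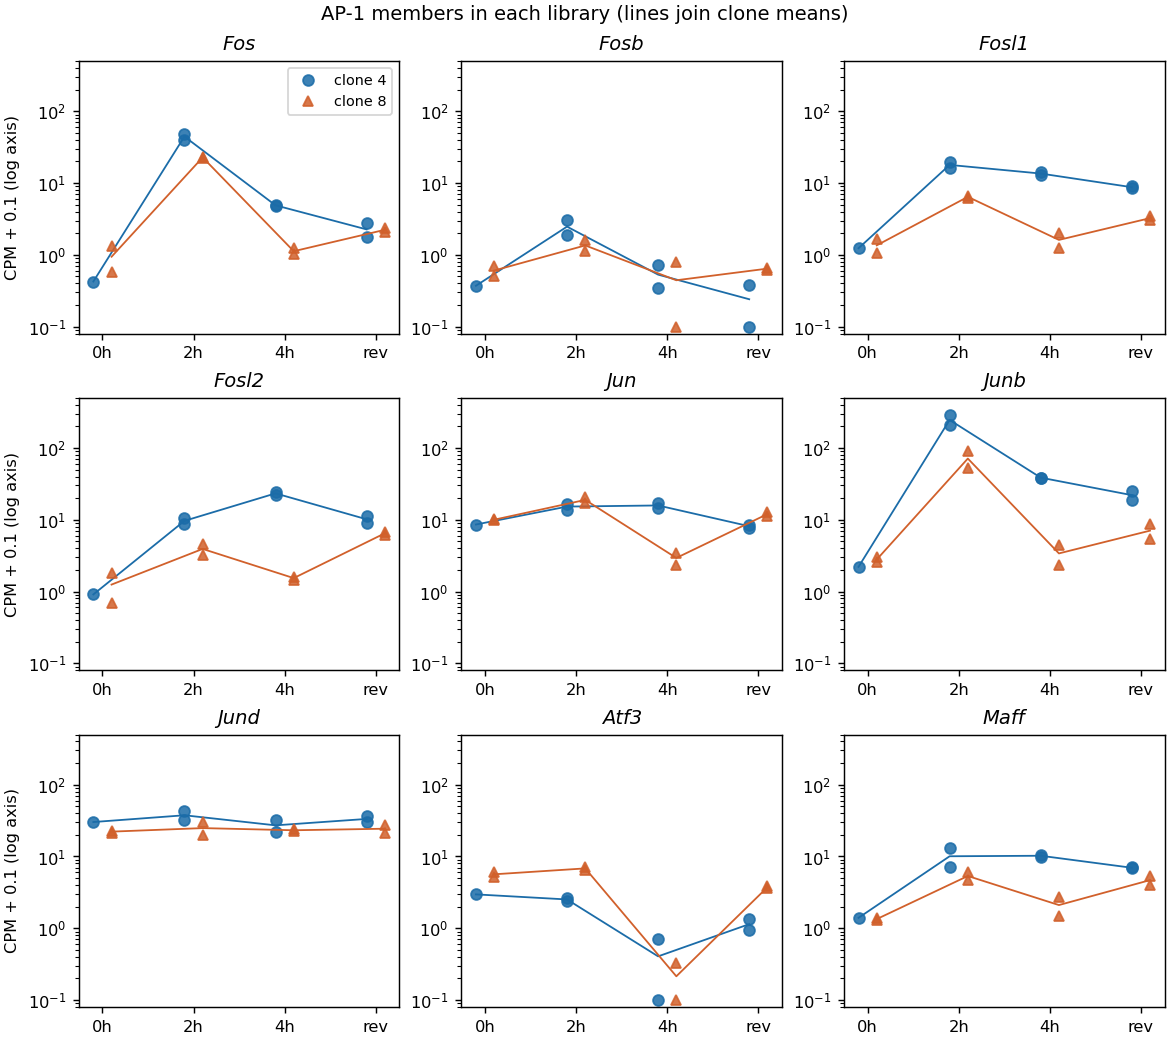
Level of each member in each library, as CPM + 0.1 on a log axis, by group; circles are clone 4, triangles are clone 8 and lines join the mean of each clone. Fos and Junb peak at 2h in both clones, and Jund stays between 19.5 and 43.1 CPM throughout. At 4h clone 4 lies above clone 8 for Fos, Fosl1, Fosl2, Jun, Junb and Maff. For all of these but Jun it does so at 2h too.

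Adding 4OHT was followed by higher levels of most members at 2 h. In 2h vs 0h, 5 of the 9 members were called higher (adjusted p under 0.05 in edgeR's quasi-likelihood test with Benjamini-Hochberg adjustment over all 13451 genes, two-sided), namely Fos, Fosb, Fosl1, Junb and Maff, where 3.98% of all genes were called higher. None was called lower, with none at an unadjusted p under 0.05 and 0 by DESeq2, where 2.46% of all genes were. Fosb passed the filter on low counts only through the 2h libraries, so it had to differ, and without it 4 of the other 8 were called higher. The median log2 fold change of the 9 members was 2.37, beside 0.01 over all genes. For 7 members, all but Jund and Atf3, every 2h library lay above every 0h library, which held for 10.1% of all genes. Fosb is among these 7, and the filter favoured that outcome for it.

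Fos, the founding partner of Jun in AP-1, was 0.324 CPM in the 0h library of clone 4 and 0.468 and 1.21 CPM in those of clone 8. At 2h it was 40.1 and 48.5 CPM in clone 4 and 22.3 and 22.98 CPM in clone 8. All 4 libraries at 2h were far above all 3 at 0h, and those of clone 4 were above those of clone 8. The rise was 5.61 on the log2 scale (SE 0.527, adjusted p = 5.78e-05). Within each clone it was 7.04 (SE 0.462) in clone 4 and 4.84 (SE 0.311) in clone 8.

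Junb, a Jun family member with a weaker activation domain than Jun, was 2.11 CPM at 0h in clone 4 and 2.47 and 2.91 CPM in clone 8. At 2h it was 284 and 208 CPM in clone 4 and 52.6 and 89.6 CPM in clone 8. The groups were far apart, and the clones also did not overlap at 2h. The rise was 5.27 (SE 0.697, adjusted p = 0.00146), with 6.86 (SE 0.489) in clone 4 and 4.73 (SE 0.328) in clone 8. Exons of Junb share 173 bases with Prdx2 on the opposite strand. How the counting used strand is not given in the sources used here. Prdx2 was at 79.2 ± 3.13 CPM in the 0h group (SD, n = 3) and at 73.5 ± 10.996 CPM in the 2h group (SD, n = 4).

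Fosl1 (Fra-1), a Fos family member without a strong activation domain, was 1.13 CPM at 0h in clone 4 and 1.54 and 0.969 CPM in clone 8. It was 19.6 and 15.9 CPM at 2h in clone 4 and 6.10 and 6.54 CPM in clone 8. Every 2h library lay above every 0h library, by 2.81 on the log2 scale (SE 0.439, adjusted p = 0.00115). Without the clone term it was 3.27, and the call was lost (adjusted p = 0.0549). Fosl1 shares 1163 of its exon bases with Ccdc85b on the opposite strand, so reads from the 2 genes may not be separable. Ccdc85b was at 5.71 ± 0.730 CPM in the 0h group (SD, n = 3) and at 3.15 ± 0.946 CPM in the 2h group (SD, n = 4).

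Fosl2 (Fra-2), its closest relative, was 0.810 CPM at 0h in clone 4 and 0.602 and 1.70 CPM in clone 8. At 2h it was 10.3 and 8.75 CPM in clone 4 and 3.14 and 4.50 CPM in clone 8. The groups did not overlap, but over both clones the difference of 2.40 (SE 0.736) missed the threshold (adjusted p = 0.0844). It was called within each clone, at 3.54 (SE 0.439, adjusted p = 3.04e-05) in clone 4 and 1.83 (SE 0.337, adjusted p = 0.00348) in clone 8, and over both clones by DESeq2 (2.18, adjusted p = 0.0283).

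Maff, the small Maf protein, was 1.30 CPM at 0h in clone 4 and 1.27 and 1.21 CPM in clone 8. It was 12.9 and 6.99 CPM at 2h in clone 4 and 4.53 and 5.95 CPM in clone 8. Every 2h library was above the narrow range at 0h, by 2.37 (SE 0.360, adjusted p = 0.00033). Fosb, which like Fos carries an activation domain, was the least abundant, with 0.270 CPM at 0h in clone 4 and 0.401 and 0.606 CPM in clone 8. At 2h it was 1.82 and 2.92 CPM in clone 4 and 1.48 and 1.02 CPM in clone 8. Fosb had 10 counts or more in the 4 libraries of 2h and in no other. Its difference, which that filter fixed in direction, was 2.12 (SE 0.517, adjusted p = 0.0125), and the call was lost without the 0h library of clone 4 (1.72, adjusted p = 0.199) and without replicate 2 of clone 4 at 2h (1.78, adjusted p = 0.0572).

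The remaining members were not called at 2 h. Jun, the founding Jun protein, was 8.48 CPM at 0h in clone 4 and 9.76 and 10.1 CPM in clone 8. It was 16.7 and 13.6 CPM at 2h in clone 4 and 17.2 and 20.4 CPM in clone 8. Each 2h library was above each 0h library, yet the difference of 0.83 (SE 0.4999) had an adjusted p of 0.377. In the fit with only these 2 groups it was 0.88 (adjusted p = 0.00196), and within clone 8 it was 0.92 (SE 0.192, adjusted p = 0.00972). Jund was 30.1 CPM at 0h in clone 4 and 21.3 and 22.9 CPM in clone 8, and 43.1, 31.7, 19.5 and 29.9 CPM in the 2h libraries, which overlapped those of 0h (0.24, SE 0.157, adjusted p = 0.392). Atf3, a stress-responsive repressor when it pairs with itself, was 2.86, 5.15 and 5.94 CPM at 0h and 2.27, 2.56, 6.37 and 7.07 CPM at 2h, in the order of clone 4 before clone 8. Its 2h levels split by clone, not by time (0.09, SE 0.285, adjusted p = 0.892).

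Within each clone 6 members were called higher at 2h than at 0h. In clone 4 these were Fos, Fosb, Fosl1, Fosl2, Junb and Maff (3.06% of all genes), and in clone 8 Fos, Fosl1, Fosl2, Jun, Junb and Maff (1.73% of all genes). Without Fosb, 5 of the other 8 were called in clone 4. For 7 of the 9 members the fitted rise was smaller in clone 8. The difference in the rise between clones, clone 8 minus clone 4, ran from -2.20 for Fos to 0.52 for Atf3. In edgeR's test it passed the threshold for 0 of the 9, with 4 at an unadjusted p under 0.05 and a lowest adjusted p of 0.143. Over all genes 0.23% passed. The 0h group of clone 4 is 1 library, which is assumed to vary like the others.

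The make-up of both subfamilies at the RNA level was different at 2h. At 0h Fos made up 25.3% ± 13.4 (SD, n = 3) of the summed CPM per kb of the 4 Fos family genes, against 68.6% ± 5.45 (SD, n = 4) at 2h, 24.9% ± 7.67 at 4h and 21.5% ± 8.35 in rev. Its lowest share at 2h was 60.7% and its highest share in any other group was 40.7%, so the groups did not overlap. Fosl1 had the largest mean share in the other groups, at 58.5% ± 18.0 at 0h, 56.3% ± 6.58 at 4h and 58.3% ± 11.7 in rev. In replicate 2 of clone 8 at 0h, Fos (0.515 CPM per kb) lay above Fosl1 (0.477 CPM per kb). The overlap of Fosl1 with Ccdc85b given above also limits what its share can mean. In the Jun family the share of Junb in the 0h group was 5.86% ± 1.43 (SD, n = 3) and in the 2h group 69.5% ± 11.9 (SD, n = 4), while that of Jund was 78.2% ± 4.55 and 22.8% ± 6.996. At 4h the share of Junb ran from 6.39% to 47.4%, the widest spread of the 4 groups. These are shares of counted RNA per length and carry no test.

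**Figure D2:**
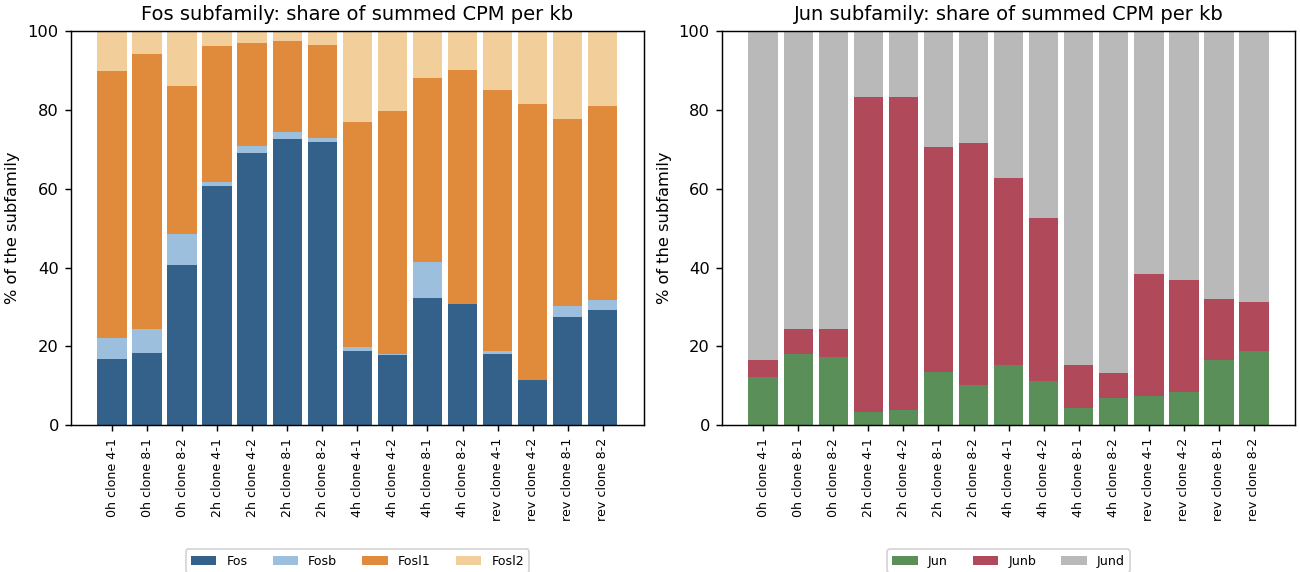
Share of each gene in the summed CPM per kb of its subfamily, as percent stacked bars, 1 bar per library named by group, clone and replicate. Fos takes 60.7% to 72.7% of the Fos family at 2h, and Junb takes 57.2% to 79.9% of the Jun family at 2h and 6.39% to 47.4% at 4h, where the clones differ.

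Between 2 and 4 h of 4OHT the fast members came down, and Atf3, which had not been called at 2 h, fell as well. In 4h vs 2h, 4 of the 9 members were called lower (Fos, Fosb, Junb and Atf3), where 19.2% of all genes were called lower. None was called higher, with none at an unadjusted p under 0.05 and 0 by DESeq2, where 19.7% of all genes were. The median log2 fold change of the members was -0.99, or -0.91 with genes at the floor of detection put at their bound, and that over all genes was -0.01. Fosb, high only at 2h by the filter, had to differ here too, and without it 3 of the other 8 were called lower. For Fos, Junb and Atf3 every 4h library lay below every 2h library, which held for 13.3% of all genes. This was also so for Fosb, for which the filter favoured it, and for the other 5 members the libraries overlapped.

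Fos was 4.89 and 4.69 CPM at 4h in clone 4 and 0.911 and 1.13 CPM in clone 8. The clones did not overlap, and clone 8 was back within its range at 0h while clone 4 was not. Over both clones Fos fell by 3.61 from 2h (SE 0.436, adjusted p = 4.10e-05). Junb was 38.5 and 38.5 CPM at 4h in clone 4 and 4.33 and 2.26 CPM in clone 8, and it fell by 3.23 (SE 0.551, adjusted p = 0.00103). Here too the clones were far apart, with clone 8 near its level at 0h.

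The 2 other members that were called lower reached the floor, which is 3 counts per library (0.683 to 1.83 CPM at 4h). Atf3 had at most 1 count in each 4h library, against 20 to 132 counts at 2h, and was at least 4.16-fold lower than at 2h (adjusted p = 3.66e-07). It was at least 4.24-fold lower than at 0h (adjusted p = 8.40e-07). Fosb had at most 3 counts in each 4h library and was at least 1.65-fold lower than at 2h, given as a description because of the filter.

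Fosl1, Fosl2 and Jun, whose change from 2h to 4h differed between the clones in the interaction test, and Maff, for which that difference was not called (-1.49, adjusted p = 0.111), stood apart by clone at 4h. Fosl1 was 12.8 and 14.1 CPM at 4h in clone 4 and 1.14 and 1.88 CPM in clone 8. Fosl2 was 24.4 and 21.97 CPM in clone 4 and 1.37 and 1.51 CPM in clone 8. In clone 4 the level of Fosl2 at 4h was above that at 2h, whereas in clone 8 it was below every 2h library. Jun was 17.1 and 14.3 CPM in clone 4 and 2.28 and 3.39 CPM in clone 8. Maff was 10.4 and 9.87 CPM in clone 4 and 1.37 and 2.64 CPM in clone 8. For all of Fos, Fosl1, Fosl2, Jun, Junb and Maff, each 4h library of clone 4 lay above each 4h library of clone 8. All of these but Jun had the same order of clones at 2h. With 2 libraries on each side such an order can arise by chance, and its share over all genes was not counted. Jund did not have this order at 4h, with 21.99 and 32.1 CPM in clone 4 and 23.9 and 22.2 CPM in clone 8.

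The counts behind the low values were small. In the 4h libraries of clone 8 (replicates 1 and 2), Fos had 4 and 3 counts, Fosl1 5 and 5, Fosl2 6 and 4, Jun 10 and 9, Junb 19 and 6, and Maff 6 and 7. Jund had 105 and 59 counts in the same libraries. The library with the fewest counts was replicate 1 of clone 4, with 1552022 in all. The intervals of such counts cover counting error only, since the reads carried no stated molecular identifiers.

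**Figure D3:**
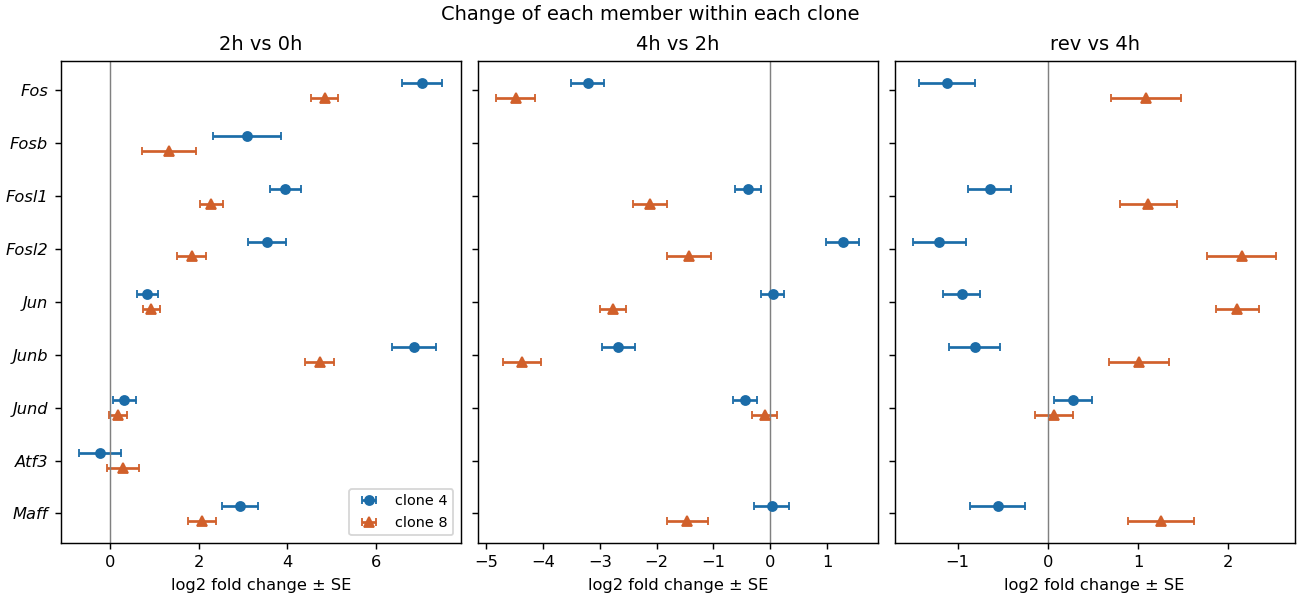
Log2 fold change of each member within clone 4 (circles) and clone 8 (triangles), with the standard error of the fit, in 3 panels from 2h vs 0h to rev vs 4h; Fosb and Atf3 are left out of the later panels because they were at the floor at 4h. The clones share the direction at 2h for every member but Atf3, and in rev vs 4h they lie on opposite sides of 0 for Fos, Fosl1, Fosl2, Jun, Junb and Maff.

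Within clone 4, Fosl2 was called higher at 4h than at 2h (1.28, SE 0.293, adjusted p = 0.00325), where 13.5% of all genes were. Fos, Fosb, Junb and Atf3 were called lower there (4 of 9, or 3 of 8 without Fosb, with 13.8% of all genes called lower). Jun (0.04, SE 0.201) and Maff (0.02, SE 0.302) were near 0. Within clone 8, 7 members were called lower, all but Fosb and Jund, with 13.1% of all genes called lower. Among them Jun fell by 2.76 (SE 0.232, adjusted p = 7.18e-08) and Maff by 1.46 (SE 0.362, adjusted p = 0.00544).

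The difference between the clones in 4h vs 2h was tested as an interaction, clone 8 minus clone 4, and was called for 4 of the 9 members, all negative, where 3.14% of all genes were called. It was -2.80 for Jun (SE 0.308, adjusted p = 3.09e-05), -2.70 for Fosl2 (SE 0.484, adjusted p = 0.00263), -1.72 for Fosl1 (SE 0.387, adjusted p = 0.0154) and -1.70 for Junb (SE 0.427, adjusted p = 0.0457). The calls for Jun and Fosl2 held in every setting run. That for Fosl1 was lost with total count scaling (adjusted p = 0.0852) and without replicate 2 of clone 4 at 2h or 4h or replicate 1 of clone 8 at 4h (highest adjusted p = 0.141). That for Junb was lost in 9 settings, of which 6 each left out a library: replicate 1 or 2 of clone 4 or replicate 2 of clone 8, at 2h or at 4h (highest adjusted p = 0.161). Values for Fosb and Atf3 are not given, since both were at the floor at 4h in both clones. Beside these differences, the summed naive marker level at 4h was also unequal between the clones, as given above, and its part in them was not tested.

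Compared with 0h, 4h showed what remained of the rise. Over both clones 5 of the 9 members were called higher (Fos, Fosl1, Fosl2, Junb and Maff), where 20.5% of all genes were, and Atf3 was called lower, where 18.9% were. Of the 9 members Maff alone had every 4h library above every 0h library, which held for 18.2% of all genes. Within clone 4, 6 members were called higher (13.7% of all genes), at 4.81 for Fosl2, 4.18 for Junb, 3.83 for Fos, 3.56 for Fosl1, 2.95 for Maff and 0.88 for Jun, and Atf3 was lower (13.4% of all genes). Within clone 8, edgeR's test called 0 members higher, with 0 at an unadjusted p under 0.05, and called Jun (-1.84, SE 0.234, adjusted p = 1.15e-05) and Atf3 lower (12.4% of all genes). The difference between the clones was called for 6 of the 9 (3.87% of all genes), from -2.34 for Maff (SE 0.565, adjusted p = 0.0209) to -4.41 for Fosl2 (SE 0.602, adjusted p = 0.000121). Over both clones the call for Fos was lost without the 0h library of clone 4, replicate 1 of clone 8 at 0h or replicate 2 of clone 4 at 4h, and that for Junb without the 0h library of clone 4 or either 4h library of clone 4. That for Fosl2 was lost without the 0h library of clone 4 (2.11, adjusted p = 0.0903). Leaving out the same library moved Fos from 1.996 to 1.23, Junb from 2.05 to 1.21 and Fosl1 from 1.90 to 1.11 in 4h vs 0h. The comparisons with 0h share their 0h libraries with 2h vs 0h, and the 3 groups are not independent.

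Over the MEK inhibitor step Fos, Fosl2 and Jun were called lower in clone 4 and higher in clone 8. In rev vs 4h over both clones 1 of the 9 members was called, Atf3, which was at least 2.13-fold higher (adjusted p = 4.05e-05), where 15.1% of all genes were called higher. None was called lower in edgeR's test, with none at an unadjusted p under 0.05 and 0 by DESeq2, where 15.6% of all genes were. The fitted changes of Fos, Fosl1, Fosl2, Jun, Junb, Jund and Maff lay between -0.27 and 0.22, and with total count scaling those of Fos, Fosl1, Fosl2 and Junb turned from negative to positive. With that scaling the median of all genes was 0.45 in this comparison, and relative to that median the 4 values stayed negative.

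Fosl2 was 9.04 and 11.05 CPM in rev in clone 4 and 6.63 and 6.12 CPM in clone 8. The 4h values of clone 4 had been higher than this and those of clone 8 lower, and the clones stood closer in rev. Jun was 8.41 and 7.64 CPM in rev in clone 4 and 12.7 and 11.1 CPM in clone 8, which reversed the order of the clones seen at 4h. Fos was 2.66 and 1.65 CPM in clone 4 and 1.97 and 2.28 CPM in clone 8, with the clones overlapping. Junb was 25.2 and 18.7 CPM in clone 4 and 8.60 and 5.29 CPM in clone 8. Fosl1 was 8.41 and 8.88 CPM in clone 4 and 2.96 and 3.32 CPM in clone 8. Maff was 7.01 and 6.71 CPM in clone 4 and 5.22 and 3.94 CPM in clone 8. For these 3 the clones kept their order but stood closer than at 4h.

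Atf3 was 0.841 and 1.24 CPM in rev in clone 4 and 3.52 and 3.74 CPM in clone 8, a return in part that was resolved in clone 8 only. Every rev library was above every 4h library, which held for 1 of the 9 members and for 11.9% of all genes, and clone 8 was again above clone 4. Within clone 4 the rev mean of 1.04 CPM lay under the mean 4h floor of 1.29 CPM, so no fold is given there. In edgeR's test the change of Atf3 in clone 4 was not called (adjusted p = 0.0868). Fosb stayed low, at 0.280 and 0 CPM in clone 4 and 0.564 and 0.519 CPM in clone 8, and no fold is given because both groups were at or under the floor set by the shallow 4h libraries. Jund was 36.2 and 30.3 CPM in clone 4 and 27.4 and 21.2 CPM in clone 8.

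Within clone 4, 3 members were called lower in rev than at 4h, where 8.39% of all genes were. These were Fosl2 (-1.20, SE 0.292, adjusted p = 0.00775), Fos (-1.12, SE 0.307, adjusted p = 0.0165) and Jun (-0.95, SE 0.204, adjusted p = 0.0033). Fosl1, Junb and Maff had negative values there that were not called (adjusted p = 0.0694, 0.0641 and 0.224). Within clone 8, 7 members were called higher, where 11.5% of all genes were. They were Fosl2 (2.15, SE 0.384, adjusted p = 0.000433), Jun (2.10, SE 0.234, adjusted p = 2.62e-06), Maff, Fosl1, Fos, Junb and Atf3, the last at least 4.00-fold.

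The difference between the clones in rev vs 4h, clone 8 minus clone 4, was called for 6 of the 9 members, all positive, where 2.8% of all genes were called. It was 3.35 for Fosl2 (SE 0.483, adjusted p = 0.000365) and 3.06 for Jun (SE 0.311, adjusted p = 1.44e-05), and both calls held in every setting run. It was 2.21 for Fos (SE 0.493, adjusted p = 0.0167), 1.82 for Junb (SE 0.437, adjusted p = 0.0393), 1.81 for Maff (SE 0.480, adjusted p = 0.0475) and 1.76 for Fosl1 (SE 0.398, adjusted p = 0.018). These 4 calls were lost with total count scaling and with the 20 most abundant and the mitochondrial genes set aside. Those for Fos, Junb and Maff were also lost with the earlier form of the quasi-likelihood fit. Each of the 8 libraries of 4h and rev, when left out, lost at least 1 of the 4. Because the 4h libraries enter both steps, a clone difference at 4h appears with opposite sign in 4h vs 2h and in rev vs 4h, and the second is no independent measurement of the first.

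The rev group was also compared with the starting level. In rev vs 0h over both clones 3 members were called higher, Maff (1.995, SE 0.363, adjusted p = 0.00133), Fosl1 (1.78, SE 0.444, adjusted p = 0.0185) and Fosl2 (2.82, SE 0.739, adjusted p = 0.0345), where 6.49% of all genes were. Atf3 was called lower (-0.93, SE 0.296, adjusted p = 0.0427), where 4.66% of all genes were. The call for Atf3 was lost in each of the 7 fits without 1 library of these groups. That for Fosl1 was lost without the 0h library of clone 4 or replicate 2 of clone 8 in rev, and that for Fosl2 without the 0h library of clone 4, replicate 1 of clone 8 at 0h, replicate 2 of clone 4 in rev or either rev library of clone 8. Fos (1.72, adjusted p = 0.055) and Junb (1.85, adjusted p = 0.0922) missed the threshold. Both were called by DESeq2 (1.66, adjusted p = 0.0229, and 1.73, adjusted p = 0.0291), and without the 0h library of clone 4 they were 0.999 (adjusted p = 0.279) and 1.10 (adjusted p = 0.333). Without that library Fosl1 moved to 1.06 (adjusted p = 0.108). For 5 of the 9 members, Fos, Fosl1, Fosl2, Junb and Maff, every rev library lay above every 0h library, which held for 14.7% of all genes. Within each clone taken alone, Fos, Fosl1, Fosl2, Junb and Maff were called higher, which is 5 of the 9 in clone 4 (4.81% of all genes) and 5 in clone 8 (2.95% of all genes). In edgeR's test of the difference between clones in rev vs 0h, 0 of the 9 were called and 3 had an unadjusted p under 0.05, with differences from -2.01 (Junb) to 0.87 (Atf3), beside 0.0818% of all genes called. A difference that misses the threshold does not show that the clones acted alike.

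Taking all groups at once in the additive model, 1 member was higher in clone 8 than in clone 4, Atf3 (1.39, SE 0.239, adjusted p = 0.000194), where 10.4% of all genes were. There were 4 members lower in clone 8, Junb (-1.84, SE 0.413, adjusted p = 0.0117), Fosl1 (-1.55, SE 0.280, adjusted p = 0.00124), Maff (-0.97, SE 0.232, adjusted p = 0.00638) and Jund (-0.44, SE 0.107, adjusted p = 0.00607), where 8.11% of all genes were. The call for Jund was lost with total count scaling (adjusted p = 0.2065). The model assumes the same clone difference in every group. At 0h the means of clone 4 (1 library) and clone 8 were 2.11 and 2.69 CPM for Junb, 1.13 and 1.25 CPM for Fosl1 and 1.30 and 1.24 CPM for Maff. They were 30.1 and 22.1 CPM for Jund and 2.86 and 5.54 CPM for Atf3.

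The partners and relatives of AP-1 were read from a list of 27 bZIP genes, of which 25 were tested. In 2h vs 0h edgeR's test called 4 higher and 0 lower, with 5 and 0 at an unadjusted p under 0.05, beside 3.98% and 2.46% of all genes called. Maf, a large Maf protein, had at most 3 counts in any 0h library and was at least 5.87-fold higher at 2h. Ddit3 (CHOP), a stress-induced bZIP protein, went from 5.44 ± 1.16 CPM (SD, n = 3) to 17.0 ± 4.09 CPM (SD, n = 4). Mafk, a small Maf protein like Maff, went from 3.74 ± 0.0539 to 10.3 ± 4.24 CPM. Atf2, a partner of Jun, went from 33.9 ± 1.35 to 51.1 ± 7.43 CPM. Of the 25, 2 were higher and 7 lower in 4h vs 2h (19.7% and 19.2% of all genes), with Ddit3 (-2.41, SE 0.269) and Mafk (-1.49, SE 0.231) among the lower, at 3.24 ± 0.528 and 3.41 ± 0.502 CPM. Of the 25, 7 were higher and 2 lower in rev vs 4h (15.1% and 15.6% of all genes). The list medians were 0.19, -0.07 and 0.04 in the 3 steps (0.19, -0.06 and 0.01 when floor values were put at their bound), beside 0.01, -0.01 and 0.02 over all genes. In edgeR's test the clone difference was called for 0 of the 25 in 4h vs 2h and 0 in rev vs 4h, beside 3.14% and 2.8% of all genes. In each step 7 of the 25 had an unadjusted p under 0.05.

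Of the kinases and serum response factor partners that act upstream of the Fos and Jun genes, 23 of 25 listed symbols were in the table and tested. Of these, 2 were higher and 2 lower in 2h vs 0h (3.98% and 2.46% of all genes), with Elk4, an ETS partner of serum response factor, at 0.63 (SE 0.126, adjusted p = 0.0033) and Rps6ka2, a ribosomal S6 kinase downstream of ERK, at -0.55 (SE 0.147, adjusted p = 0.0239). In 4h vs 2h 9 were higher and 4 lower (19.7% and 19.2% of all genes). Mapk3, which encodes ERK1, went from 15.9 ± 3.23 to 29.3 ± 2.998 CPM (SD, n = 4 each), and Rps6ka2 fell from 22.6 ± 7.11 to 11.5 ± 1.70 CPM. In rev vs 4h 4 were higher and 5 lower (15.1% and 15.6% of all genes), with Mapk3 at 17.3 ± 2.86 CPM. The list medians were 0.0014, 0.15 and -0.16. In edgeR's test the clone difference was called for 0 of the 23 in both later steps, beside 3.14% and 2.8% of all genes. At an unadjusted p under 0.05 there were 4 and 3 of the 23.

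The list of genes known as AP-1 targets held 27 genes, of which 19 were tested. Of the 19, 7 were higher and 1 lower in 2h vs 0h, beside 3.98% and 2.46% of all genes. Sprr1a, a cornified envelope protein, had no count in any 0h library and 85 to 247 counts at 2h, and was at least 60.1-fold higher. Dusp1, a phosphatase that acts on MAP kinases, went from 12.9 ± 2.88 CPM (SD, n = 3) to 79.1 ± 44.8 CPM (SD, n = 4) and fell to 13.9 ± 8.85 CPM at 4h. In 4h vs 2h 5 were higher and 3 lower, beside 19.7% and 19.2% of all genes. In rev vs 4h 2 were higher and 5 lower, beside 15.1% and 15.6% of all genes. The list medians were 0.41, 0.11 and -0.26 in the 3 steps.

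Part of the target list differed between the clones. In 4h vs 2h the clone difference of 6 of the 19 was called, negative in all 6 (clone 8 minus clone 4), and in rev vs 4h that of 9 of the 19, positive in all 9, beside 3.14% and 2.8% of all genes. The 9 were Dusp1, Gja1, Krt8, Krt18, Lmna, Plaur, Sprr1a, Timp1 and Vegfa, named after their values were seen. Krt18, a keratin of simple epithelia, averaged 22.3 CPM at 4h in clone 4 and 1.93 CPM in clone 8, and 26.7 and 17.4 CPM in rev (difference 2.94, SE 0.319, adjusted p = 1.86e-05). Gja1, a gap junction protein, averaged 222 CPM at 4h in clone 4 and 52.2 CPM in clone 8, and 138 and 108 CPM in rev (1.73, SE 0.205, adjusted p = 5.23e-05). For Plaur and Timp1 the change lay in clone 4, where they fell by 1.53 (SE 0.245) and 1.82 (SE 0.239), while in clone 8 they were -0.03 and -0.11. Sprr1a had at most 1 count at 4h in clone 8, so no size is given for it. The list rests on general knowledge of AP-1, and no binding was measured.

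**Figure D4:**
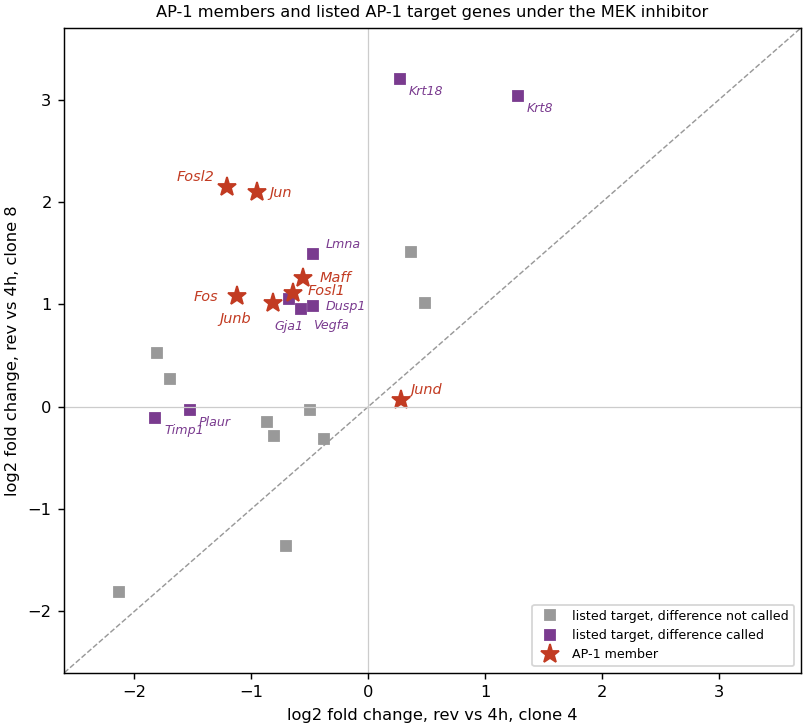
Log2 fold change in rev vs 4h within clone 4 (horizontal) and within clone 8 (vertical) for 7 AP-1 members (stars) and 18 listed AP-1 target genes (squares, filled purple where the clone difference was called); Fosb, Atf3 and Sprr1a are left out because they were at the floor at 4h, and the dashed line marks equal change. Fos, Fosl1, Fosl2, Jun, Junb and Maff lie at negative values for clone 4 and positive values for clone 8, and Jund lies near the line.

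Across the 15 libraries the members fell into looser and closer pairs by the Pearson correlation of log2(CPM + 1), given as a description because libraries share groups, clones and depth. Fosl1 and Maff had r = 0.95, Fos and Junb 0.94, Fosl2 and Maff 0.93, and Fosl1 and Junb 0.91, while Fos and Fosl2 had 0.45. Atf3 had r between -0.34 (Fosl2) and 0.53 (Jun) with the other members. Among 12291 genes compared, those most like Fos were Zfp36 (r = 0.96), an RNA-binding protein that destabilises transcripts, Junb, Gm48074 (0.93), Nfu1 and Dusp1 (both 0.91). Those most like Jun were Msn (0.92), Ccn1 (0.91), Eif3c (0.90), Mospd1 (0.87) and Gm37352 (0.84). Those most like Atf3 were Cemip2 (0.98), Alox5 (0.97), Abcb1b (0.96), Adk (0.95) and Brinp2 (0.94), whose mean levels were also lowest at 4h.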

How the data were processed

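The deposited table held raw counts per gene for 15 libraries. The submitters' processing notes name bcl2fastq 2.19.1, STAR 2.5.3a and mm10, with no role or order; the counting tool, annotation and handling of strand are not given in the sources used here. Names, exons and overlaps came from GENCODE M21 (52403 of 52636 identifiers matched), promoters from RefSeq.

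edgeR 4.0.16 in R 4.3.3 was run on the counts after filterByExpr (minimum count 10, minimum total 15; 13451 genes kept), with TMM scaling, group and clone as additive terms and robust quasi-likelihood F tests, adjusted by Benjamini-Hochberg over all genes kept. Clone differences came from a model with a mean for each group and clone. DESeq2 1.42.0 was an alternative. The test script was checked on simulated data. Libraries of a group differed beyond sampling noise (chi-square per degree of freedom 6.21 to 255), so none was counted as a duplicate. The floor was 3 counts per library, for counting error only. The authors discarded 1 sample of 0h, which was not analysed here.

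The members and gene lists were chosen with earlier results of these data known. Named were all members, up to 4 called genes of each list with the largest change and a mean of at least 1 CPM over the samples in each of the 3 successive steps, and the 5 genes most like Fos, Jun and Atf3 among genes with a mean of at least 1 CPM. The text gives some of these list genes and counts the rest. Marker lists were summed by library. The comparisons of 4h and rev with 0h within each clone, and the earlier form of the quasi-likelihood fit, were added after seeing the data.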

Additional observations from a re-analysis of the deposited data

Results flagged for a closer look

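The change from 2h to 4h differed between the clones, by the interaction test of edgeR's quasi-likelihood fit, for 4 members. Clone 8 minus clone 4 was -1.72 for Fosl1, -2.70 for Fosl2, -2.80 for Jun and -1.70 for Junb on the log2 scale. In rev vs 4h the same test differed for 6 members, with 2.21 for Fos, 1.76 for Fosl1, 3.35 for Fosl2, 3.06 for Jun, 1.82 for Junb and 1.81 for Maff. Both sets use the 4 libraries of 4h. Each group of 4 libraries was also examined for a single library far from the others, in 27 groups of the 9 members, of which chance would flag about 5%, and none was found.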

How the results depend on the processing

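The 4h libraries limit what can be read at that time: 3 counts stood for 0.683 to 1.83 CPM there and for 0.161 to 0.423 CPM in the other groups, and every member but Jund had under 20 counts in each 4h library of clone 8. Changes within each clone were fitted in 1 setting, and DESeq2 was not run on clone differences.

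Of 553 values of single members under alternatives that kept all libraries, 471 kept their direction and their side of the threshold, 28 lost a call, 39 gained one and 15 changed sign. Of 484 values with 1 library left out, the numbers were 397, 53, 7 and 27. The cause was not tested. With total count scaling the median log2 fold change over all genes was -0.18 in 2h vs 0h, -0.57 in 4h vs 2h and 0.45 in rev vs 4h. It was -0.73 in 4h vs 0h and -0.30 in rev vs 0h.

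In 4h vs 2h the members called numbered 8 with total count scaling (5356 of 13451 genes called) and 7 with no filter (5352 of 32611 genes). In rev vs 4h they numbered 0 with only the groups compared (3527 of 11440 genes). In 4h vs 0h they numbered 2 with only the groups compared (4152 of 11532 genes) and 2 within clone 8 (3562 of 13451 genes). The filter of the fit with only the groups compared removed Atf3 and Fosb in rev vs 4h (11440 genes tested), Fos and Fosb in 4h vs 0h (11532) and Fosb in rev vs 0h (12761), so these were not tested there. Fosl1, Fosl2 and Junb were tested in 4h vs 0h in that fit and were not called (adjusted p = 0.0828, 0.157 and 0.216). In rev vs 0h 1 member was called with no clone term (793 of 13451 genes) and 1 with the replicate block (1104 of 13451 genes). For the clone difference in 2h vs 0h, 2 members were called with no filter (56 of 32611 genes). For that in rev vs 4h, 2 were called with total count scaling (44 of 13451 genes). It was 3 with the earlier form of the quasi-likelihood fit (286 of 13451 genes) and 2 without the 20 most abundant and mitochondrial genes (275 of 13264 genes). Leaving out 1 library gave 3 to 6 members in 4h vs 0h, 1 to 4 in rev vs 0h, and for the clone differences 0 to 1 in 2h vs 0h, 2 to 4 in 4h vs 2h and 2 to 5 in rev vs 4h. The clone difference in 2h vs 0h could not be fitted without the 0h library of clone 4. Replicate numbers did not pair the samples, since same-numbered deviations correlated between -0.194 and 0.261, and the replicate block changed the count of members called by over 1.5 times in rev vs 0h alone.

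Values that changed sign were small. With total count scaling they were -0.054 for Atf3 in 2h vs 0h; 0.21 for Fos, 0.32 for Fosl1, 0.22 for Fosl2 and 0.17 for Junb in rev vs 4h, all below the 0.45 by which all genes moved; -0.27 for Jun and -0.17 for Jund in rev vs 0h; 0.080 for Fosb between clones; and 0.61 and -0.21 for the clone difference of Jund in 2h vs 0h and 4h vs 2h. With no clone term they were -0.0084 for Maff in rev vs 4h and 0.025 for Jund in 4h vs 0h. Between clones Fosb was 0.11 by DESeq2, and Jun was 0.031 with the earlier form and 0.084 without the 20 most abundant and mitochondrial genes. With 1 library left out, rev vs 4h ran from -0.59 to 0.10 for Fos, -0.43 to 0.25 for Fosl1, -0.56 to 0.21 for Fosl2, -0.24 to 0.58 for Jun, -0.50 to 0.075 for Junb and -0.22 to 0.40 for Maff. It ran from -0.040 to 0.33 for Atf3 in 2h vs 0h, -0.68 to 0.11 for Fosb and -0.16 to 0.19 for Jun in rev vs 0h, and -0.54 to 0.30 for Jun and -0.11 to 0.078 for Jund in 4h vs 0h. The clone difference in 2h vs 0h ran from -0.042 to 0.27 for Jun and -0.49 to 0.13 for Jund, and that of Jund in rev vs 4h from -0.52 to 0.017.

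Over all genes the calls in 2h vs 0h ran from 266 (total count scaling) to 1494 (20 most abundant and mitochondrial genes set aside) around 867, those in rev vs 0h from 511 (without the 0h library of clone 4) to 2934 (only the groups compared) around 1500, and those between clones fell from 2492 to 761 with total count scaling. Clone differences fell with total count scaling from 31 to 2 in 2h vs 0h (56 with no filter), 422 to 147 in 4h vs 2h and 377 to 44 in rev vs 4h. Of the 5 genes most like each of Fos, Jun and Atf3, 1, 3 and 3 remained with Spearman's rho and 3, 4 and 3 with a pseudocount of 0.1.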
